A study of Mus musculus with 12 samples.

Results

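The leukocyte integrins described here are the 8 genes Itgam, Itgax, Itgal, Itgad, Itgae, Itga4, Itgb2 and Itgb7, taken by symbol from a table of read counts for 23479 genes. All 8 were found, and 7 of them had enough reads to be tested among 15082 genes; Itgad did not. The table came from bulk RNA sequencing of 12 mouse prostate tumours, 3 in each of 4 treatment groups. Each C57BL/6J mouse had received 100000 cells of the PTE-82 prostate cancer line, injected into the prostate in 40 µl of buffer with Matrigel, and the tumours expressed the TMPRSS2-ERG fusion. All groups thus rest on a single transplanted line, and each library holds tumour and host tissue together. The IgG group was the antibody control. The anti-CSF1 group received an antibody against CSF1, the growth factor on which most tissue macrophages depend, on days 9 and 14. The Lupron group received 0.6 mg of Lupron per mouse on day 4, a drug that lowers testosterone through the pituitary. The Lupron/anti-CSF1 group received both on those days, and all tumours were taken on day 17 after perfusion of the animal with buffer. The sources used here do not say whether control IgG was also given with Lupron, or whether each library is a separate animal, so p-values measure the spread between these libraries.

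Integrins are pairs of an alpha and a beta chain that span the cell membrane and bind ligands on other cells or in the matrix. On leukocytes, the beta2 chain (Itgb2, CD18) pairs with 4 alpha chains, Itgal (LFA-1), Itgam (Mac-1, complement receptor of myeloid cells), Itgax (CD11c, of dendritic cells and many macrophages) and Itgad (CD11d), and these pairs serve firm adhesion, crossing of vessel walls and phagocytosis. The beta7 chain (Itgb7) pairs with Itga4 for homing to mucosa and with Itgae (CD103), which holds T cells and some dendritic cells to epithelial cadherin. Itga4 also pairs with beta1 integrin and is not limited to leukocytes.

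Levels are given as CPM, read counts per 1000000 of a scaled library size, and are listed by replicate number within a group. The scaled size is the summed count of the tested genes times edgeR's TMM factor (0.77 to 1.13 here). A CPM is thus not an exact share of a library's counts: Lupron replicate 2 had 22585189 counts and a scaled size of 17431990. A change is a log2 fold change ± its standard error. That error was derived from the test, as the absolute log2 fold change over the square root of the F statistic. Calls are genes with an adjusted p under 0.05, from edgeR's quasi-likelihood test and the Benjamini-Hochberg method over all tested genes, unless another tool is named. Libraries held from 20584363 to 29965355 counts. IgG replicate 3 stood apart from the other libraries: its summed smooth muscle markers were at 11374 CPM against 210 to 2609 in the other 11 libraries, its epithelial markers at 1951 against 108 to 441, and its proliferation markers at 75.1 against 777 to 1865. Lupron replicate 2 stood apart in another way: its summed seminal vesicle genes were at 363005 CPM against 244 to 104111 in the other 11 libraries. It was the lowest of the 3 Lupron tumours for Itgax, Itgal, Itgb2 and Itga4, and no call of a member differed when it was left out.

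The main result was a lower level of Itgam in tumours given anti-CSF1, and it fell in every alternative fit of that comparison that was run. Averaged over tumours with and without Lupron (6 tumours against 6), 1 of the 7 tested members was called, Itgam, against a background of 1.87% of all tested genes called. Of the 7 estimates 6 were negative, with a median of −0.98, and the median over all tested genes was 0.021. An unadjusted p under 0.05 was reached by 4 of the 7, Itgam, Itgax, Itgal and Itgb2, and by 19% of all tested genes. Without IgG replicate 3, 4 of the 7 were called, all lower: Itgam, Itgax, Itgal and Itgb2, against a background of 3.13%. Those 4 are the beta2 chain and its 3 measurable alpha chains. That library, a control, was the lowest of 12 for Itgax, Itgal and Itgb2, so leaving it out favours lower calls of these 3. They were called by edgeR in that 1 of the 12 fits with a library left out. This omission was chosen after the levels had been seen. Itgae, Itga4 and Itgb7, the members that form or share the beta7 pairs, were called in neither fit. In bulk RNA, fewer cells of a type and less RNA per cell cannot be told apart.

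**Figure D1:**
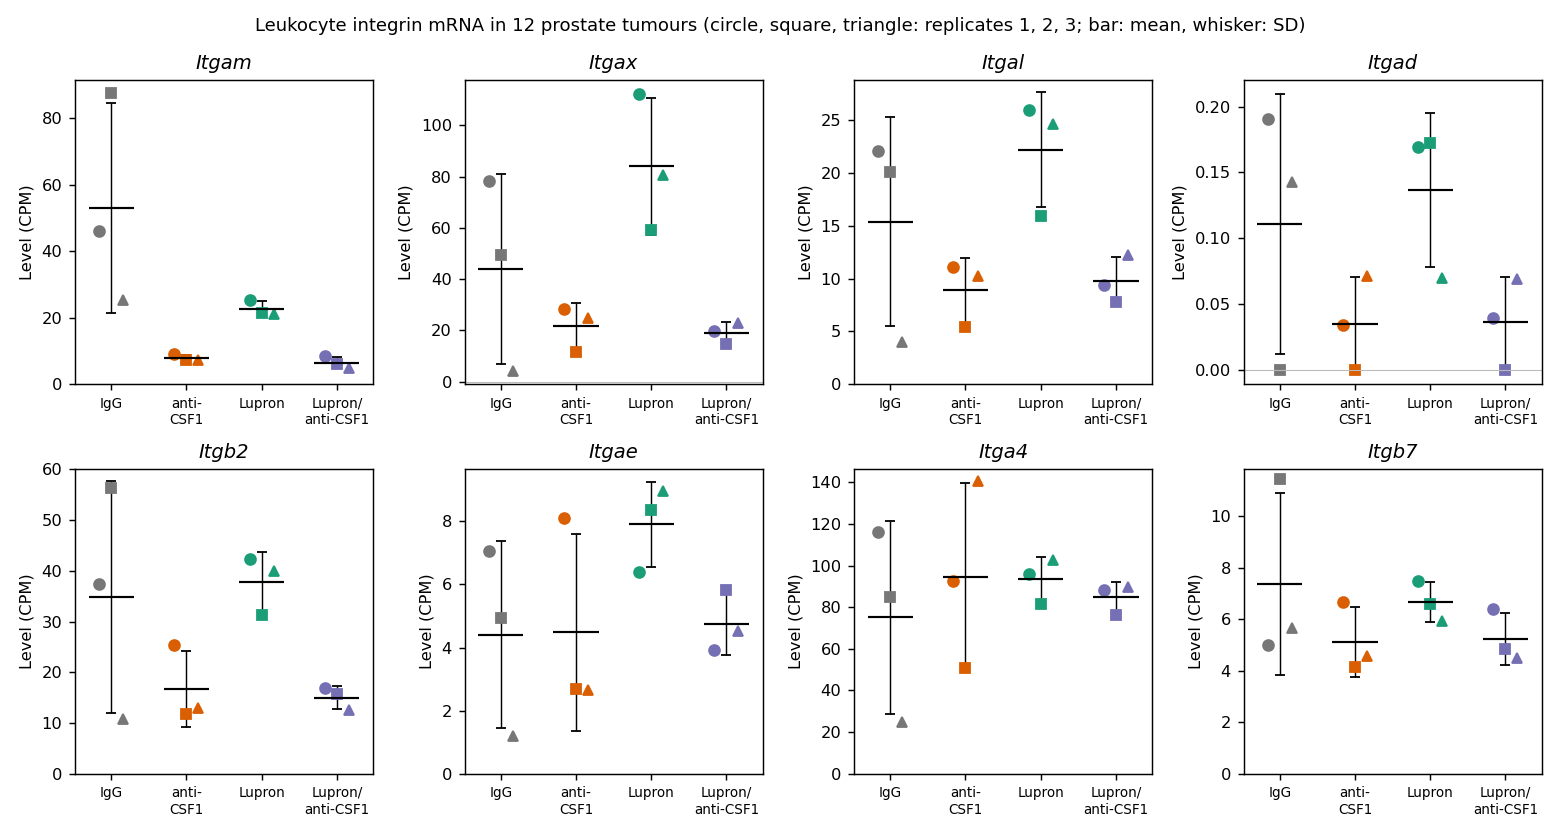
Level of each integrin mRNA in CPM (vertical axis, linear, scaled separately for each gene) in the 4 treatment groups (horizontal axis). Points are tumours, shaped by replicate number, bars are means and whiskers are SD, n = 3. Itgam lies at 9.01 CPM or below in all 6 tumours with the antibody and at 21.0 or above in all 6 without it, and the triangle of IgG replicate 3 is the lowest of 12 points for Itgax, Itgal, Itgb2, Itgae and Itga4.

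Itgam, the alpha chain of Mac-1, lies on chromosome 7 at 128062640 to 128118491 of mouse build GRCm38, the build named mm10 in the submitters' processing notes, on the plus strand, and its annotated exons cover 5024 bases. Itgax, the CD11c chain, follows it on the same strand at 128129547 to 128150657, Itgad at 128154376 to 128223816, and Itgal lies upstream at 127296260 to 127335138. RefSeq start-site windows (300 bases, most of them before the start) were at hand for 4 of the 8 members: Itgam, Itgax, Itga4 and Itgb7. The windows of Itgam and Itgax are shown because these neighbouring genes code for the myeloid alpha chains and were both lower with the antibody once IgG replicate 3 was left out. Capitals mark GAGGAA or its reverse complement TTCCTC, the letters around which the myeloid factor PU.1 often binds.
Itgam (RefSeq, GRCm38.p6, chr7:128062390-128062689, plus strand): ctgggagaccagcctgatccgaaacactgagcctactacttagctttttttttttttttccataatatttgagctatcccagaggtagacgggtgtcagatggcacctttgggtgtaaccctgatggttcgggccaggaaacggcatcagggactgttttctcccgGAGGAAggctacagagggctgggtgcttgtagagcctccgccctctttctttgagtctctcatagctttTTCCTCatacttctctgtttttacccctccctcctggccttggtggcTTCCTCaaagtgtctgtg
Itgax (RefSeq, GRCm38.p6, chr7:128129300-128129599, plus strand): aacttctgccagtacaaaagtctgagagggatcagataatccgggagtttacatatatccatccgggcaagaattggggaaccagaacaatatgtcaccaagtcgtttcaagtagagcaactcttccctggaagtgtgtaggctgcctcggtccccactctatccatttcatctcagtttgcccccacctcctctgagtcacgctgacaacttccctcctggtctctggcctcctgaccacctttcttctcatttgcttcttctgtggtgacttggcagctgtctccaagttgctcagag

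The Itgam window held these letters 3 times, starting 84 and 15 bases before and 33 bases after the start (the start-site base of the window counted as 1). The Itgax window did not hold them, and 28.3% of all 32851 RefSeq windows of that length did. The RUNX letters TGTGGT, or ACCACA on the other strand, were in the Itgax and Itga4 windows and in 16.8% of all windows. GC boxes, GGGCGG or CCGCCC, were in the Itgam and Itga4 windows and in 35.7% of all. Of the 4 windows, that of Itgb7 held TTCCTC once, at base 3 from the start site of its window. That site is not the first base of the Itgb7 gene as annotated. These are matches of letters in the reference and say nothing of binding in these tumours.

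In the IgG tumours Itgam stood at 46.2, 87.3 and 25.5 CPM. With anti-CSF1 it stood at 9.01, 7.35 and 7.36 CPM. In the Lupron tumours it was at 25.3, 21.3 and 21.0 CPM, and with Lupron/anti-CSF1 at 8.41, 6.13 and 4.99 CPM. All Lupron tumours lay below all IgG tumours, but narrowly, at 25.3 against 25.5 CPM at the closest. The share of all genes separated in this way was not counted for any comparison of 3 tumours against 3. All 6 antibody tumours lay below all 6 others. Complete separation of this kind, lower with the antibody, was seen for 1 of the 7 tested members and for 1.69% of all tested genes. The mean was 53.0 ± 31.5 CPM in the IgG tumours and 7.91 ± 0.96 in the anti-CSF1 tumours, and 22.5 ± 2.42 CPM in the Lupron tumours and 6.51 ± 1.74 in the Lupron/anti-CSF1 tumours (SD, n = 3). Averaged over Lupron, Itgam fell 4.81-fold with the antibody (−2.27 ± 0.28, adjusted p = 0.00798). It stayed called in each of 12 fits that left out 1 library, between −2.43 and −1.98, with adjusted p from 6.42e-05 to 0.0389. The exons of Itgam overlap those of a predicted gene on the same strand, Gm49368, over 3450 bases in GENCODE M21; that symbol has no row in the count table.

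Itgax stood at 78.1, 49.3 and 4.38 CPM in the IgG tumours. It was at 28.5, 11.7 and 24.9 CPM with anti-CSF1. The Lupron tumours had 112, 59.2 and 80.7 CPM, and the Lupron/anti-CSF1 tumours 19.7, 14.6 and 22.8 CPM. The IgG and anti-CSF1 groups overlapped only through IgG replicate 3, the lowest of all 12 tumours, and the Lupron groups did not overlap. The averaged change was −1.58 ± 0.52 (adjusted p = 0.153, not called) over 12 libraries and −1.85 ± 0.26 (adjusted p = 0.00163, called) without IgG replicate 3. It passed in that 1 of the 12 fits with a library left out, and its estimates ran from −1.85 to −1.22.

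Itgal, the alpha chain of LFA-1 carried by most lymphocytes and other leukocytes, was at 22, 20.1 and 4.02 CPM with IgG and at 11.1, 5.40 and 10.2 CPM with anti-CSF1. With Lupron it was at 25.9, 15.9 and 24.6 CPM, and with Lupron/anti-CSF1 at 9.35, 7.79 and 12.3 CPM. As for Itgax, IgG replicate 3 was the lowest tumour, and the other 5 tumours without the antibody lay above all 6 with it. The averaged change was −0.98 ± 0.37 (adjusted p = 0.195), and −1.21 ± 0.22 without IgG replicate 3 (adjusted p = 0.00914, called in that 1 of the 12 fits).

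Itgb2, the chain that every beta2 pair needs, lies on chromosome 10 at 77530252 to 77565708. In the IgG tumours it had 37.3, 56.3 and 10.9 CPM, and with anti-CSF1 25.3, 11.8 and 12.9 CPM. The Lupron tumours had 42.3, 31.3 and 39.9 CPM and the Lupron/anti-CSF1 tumours 16.9, 15.6 and 12.5 CPM. Its pattern across tumours was that of Itgax and Itgal: low with the antibody, and low in IgG replicate 3. Its averaged change was −1.20 ± 0.34 (adjusted p = 0.115), and −1.41 ± 0.22 without IgG replicate 3 (adjusted p = 0.00316, called in that 1 of the 12 fits). The DESeq2 Wald test over 12 libraries called Itgam, Itgax (adjusted p = 0.019) and Itgb2 (adjusted p = 0.0111), 3 of 7 members against 9.54% of all genes with an adjusted p in that test.

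With IgG replicate 3 left out, 4 of the 7 tested members had all 6 antibody tumours below the other 5, against 3.28% of all tested genes. The highest antibody tumour and the lowest of the other 5 were 9.01 and 21.0 CPM for Itgam, 28.5 and 49.3 for Itgax, 12.3 and 15.9 for Itgal, and 25.3 and 31.3 for Itgb2. The gap was thus wide for Itgam and narrow for Itgal and Itgb2. Leaving out this library was chosen after the levels had been seen.

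Itgad, the 4th alpha chain of the beta2 pairs, was near the limit of detection. Its counts were 5, 0 and 4 in the IgG tumours, 1, 0 and 2 with anti-CSF1, 5, 3 and 2 with Lupron, and 1, 0 and 2 with Lupron/anti-CSF1. That gives 19 counts over 6 tumours without the antibody and 6 counts over 6 with it. In a tumour with 0 counts, levels of up to 0.125, 0.142 and 0.160 CPM are allowed in IgG replicate 2, anti-CSF1 replicate 2 and Lupron/anti-CSF1 replicate 2 (3 counts, counting error only). A difference was not detectable at this depth: fitted with no filter on low counts, its change was −1.61 ± 1.19 (adjusted p = 0.522). Its gene model also overlaps exons of Cox6a2 and of antisense transcripts, and the sources used here do not give the strand setting of the counting.

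**Figure D2:**
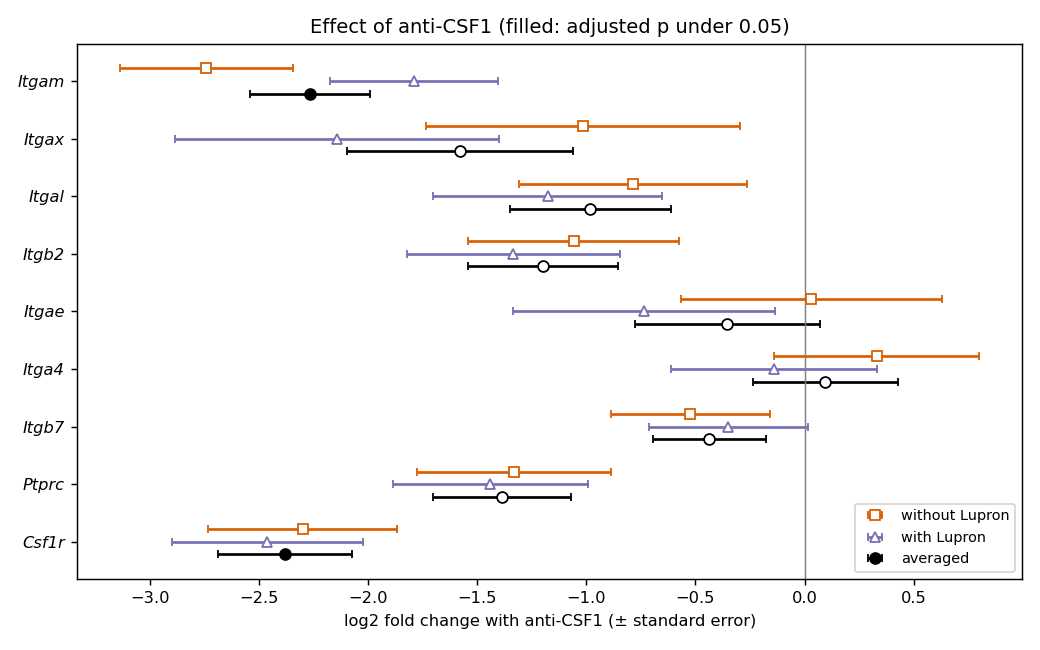
Change with anti-CSF1 for the 7 tested integrins and for the reference genes Ptprc and Csf1r (log2 fold change ± standard error, horizontal axis), without Lupron (squares, anti-CSF1 against IgG), with Lupron (triangles, Lupron/anti-CSF1 against Lupron) and averaged (circles). Filled points have an adjusted p under 0.05: in these fits over 12 libraries they are the averaged changes of Itgam (−2.27) and Csf1r (−2.38).

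Itgae, the CD103 chain, lies on chromosome 11 at 73090583 to 73147446. The IgG tumours had 7.08, 4.93 and 1.21 CPM and the anti-CSF1 tumours 8.10, 2.70 and 2.67 CPM. The Lupron tumours had 6.39, 8.38 and 8.96 CPM and the Lupron/anti-CSF1 tumours 3.91, 5.81 and 4.51 CPM. The Lupron/anti-CSF1 tumours lay below the Lupron tumours, while anti-CSF1 replicate 1 was the highest tumour of its pair of groups. The averaged change was −0.35 ± 0.42 (adjusted p = 0.649), or −0.58 ± 0.32 without IgG replicate 3 (adjusted p = 0.423), and passed in 0 of 12 edgeR fits with 1 library dropped.

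Itga4, the CD49d chain, lies on chromosome 2 at 79255426 to 79333123, and 1124 bases of its exons overlap the opposite-strand gene Cerkl. The IgG tumours had 116, 84.7 and 24.9 CPM and the anti-CSF1 tumours 92.7, 50.6 and 141 CPM. The Lupron tumours had 96.0, 81.7 and 103 CPM and the Lupron/anti-CSF1 tumours 88.5, 76.3 and 89.5 CPM. No pair of groups was separated, and IgG replicate 3 was again the lowest tumour. The averaged change was 0.095 ± 0.33 (adjusted p = 0.887), and its sign turned without IgG replicate 3 (−0.11 ± 0.22, adjusted p = 0.853).

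Itgb7, the chain shared by the mucosal pairs, lies on chromosome 15 at 102215995 to 102231944 on the minus strand. Its levels were 4.98, 11.4 and 5.66 CPM with IgG and 6.67, 4.12 and 4.55 CPM with anti-CSF1. They were 7.47, 6.60 and 5.94 CPM with Lupron and 6.38, 4.85 and 4.48 CPM with Lupron/anti-CSF1. IgG replicate 2 was the highest tumour, and every pair of groups overlapped. Its spread over the 12 tumours, 2.77-fold from lowest to highest, was the narrowest of the 7 tested members, where Itgax spanned 25.7-fold. The averaged change was −0.44 ± 0.26 (adjusted p = 0.37).

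Each antibody comparison was also made in 3 tumours against 3. In anti-CSF1 against IgG, 0 of 7 members were called by edgeR's test and 1 had an unadjusted p under 0.05, against a background of 0.00663% of genes called (3446 genes had an unadjusted p under 0.05). Itgam stood at −2.74 ± 0.40 (adjusted p = 0.0875), Itgb2 at −1.06 ± 0.49 (adjusted p = 0.22) and Itgax at −1.02 ± 0.72 (adjusted p = 0.396). Single IgG libraries moved these values: Itgax ran from −0.29 without IgG replicate 1 to −1.55 ± 0.38 without IgG replicate 3 (adjusted p = 0.0839), and Itgb2 was at −1.49 ± 0.32 without IgG replicate 3 (adjusted p = 0.0543). DESeq2 called 1 member there, Itgam, against 12.3% of all genes. By edgeR, Itgam was also called without IgG replicate 3, where 1.11% of all genes were, and without IgG replicate 1, where 16.8% were.

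In Lupron/anti-CSF1 against Lupron, 0 of 7 members and 0% of all tested genes were called by edgeR (642 genes had an unadjusted p under 0.05, and DESeq2 called 236). Of the members 4 had an unadjusted p under 0.05: Itgax, Itgam, Itgb2 and Itgal. Their changes were −2.14 ± 0.74, −1.79 ± 0.38, −1.34 ± 0.49 and −1.18 ± 0.52, with adjusted p of 0.63, 0.127, 0.734 and 1.00. All 7 estimates were negative, with a median of −1.18. A fit to these 6 libraries alone called 3 members, Itgam (adjusted p = 0.00932), Itgax (adjusted p = 0.00681) and Itgb2 (adjusted p = 0.0145), against 1.43% of all genes. DESeq2 called Itgam, against 1.61% of all genes. In the fit of all groups, removal of IgG replicate 3, which is not in the contrast but enters the shared estimate of spread, gave calls of Itgam and Itgax, against 1.38% of all genes.

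The difference between the antibody's effects with and without Lupron was tested as an interaction. Over 12 libraries it was called for 0 of 7 members and 0% of all genes, and 0 members had an unadjusted p under 0.05 by edgeR. DESeq2 called 0 members and 188 genes, and 1021 genes had an unadjusted p under 0.05 by edgeR. The estimates were 0.95 ± 0.53 for Itgam (adjusted p = 0.806) and −1.13 ± 1.01 for Itgax (adjusted p = 0.855), so the changes of these genes were not shown to depend on Lupron. These were, without IgG replicate 3, 1.28 ± 0.39 and −0.59 ± 0.51 (adjusted p = 1.00 each). Unadjusted p-values of that fit are not given here.

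Lupron itself moved no member past the threshold. Averaged over the antibody, 0 of 7 members and 0% of all genes were called by edgeR, and Itgam was the 1 member with an unadjusted p under 0.05. DESeq2 called 0 members and 12 genes, and 1366 genes had an unadjusted p under 0.05 by edgeR. Itgam had a change of −0.76 ± 0.26 (adjusted p = 0.525). In Lupron against IgG its change was −1.23 ± 0.38 (adjusted p = 0.284), with 0 members and 0% of genes called by edgeR. There 1 member (Itgam) and 2478 genes had an unadjusted p under 0.05, and DESeq2 called 0 members and 404 genes. The other members had estimates there from −0.14 for Itgb7 to 0.94 ± 0.72 for Itgax. Itgam was, without IgG replicate 3, at −1.57 ± 0.28 (adjusted p = 0.8) and Itgax at 0.40 ± 0.38 (adjusted p = 0.809), and without IgG replicate 1 Itgax was at 1.66. In Lupron/anti-CSF1 against anti-CSF1, 0 members and 0% of genes were called by edgeR, and 0 members and 294 genes had an unadjusted p under 0.05. DESeq2 called 0 members and 6 genes there. The 7 estimates lay between −0.28 for Itgam and 0.14 for Itgal.

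**Figure D3:**
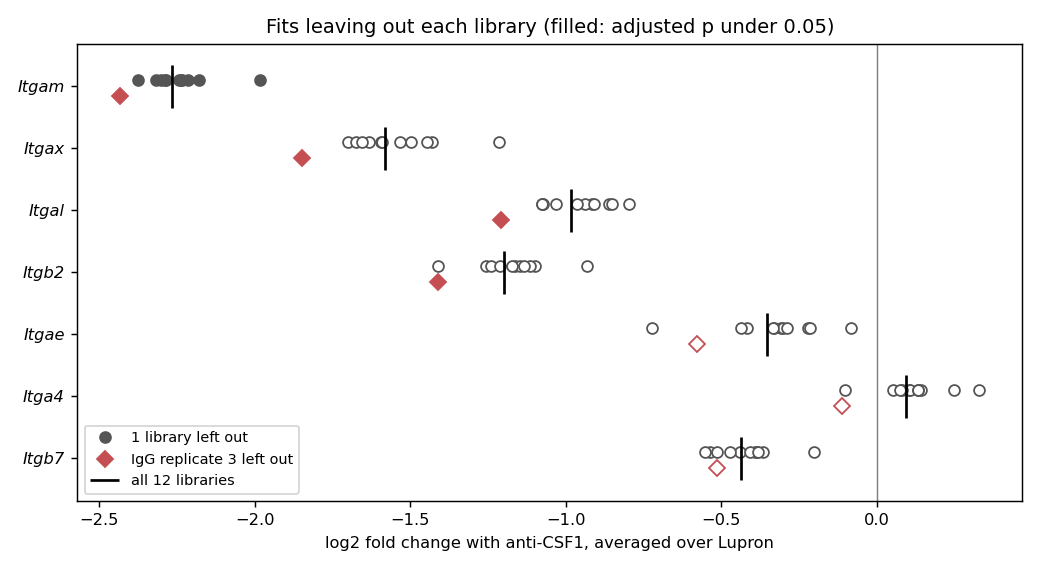
Averaged change with anti-CSF1 (log2 fold change, horizontal axis) in 12 fits that each left out 1 library. Lines mark the fit of all 12 libraries, diamonds the fit without IgG replicate 3, circles the other 11, and filled points an adjusted p under 0.05. Itgam is filled in all 12 fits, and Itgax, Itgal and Itgb2 only in the fit without IgG replicate 3.

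Levels of different genes were compared per kilobase of annotated exon, which ran from 2770 bases for Itgb7 to 13978 for Itga4. In the Lupron tumours, Itgax was highest at 17.5 ± 5.57 CPM per kb (SD, n = 3), and Itgb2 followed at 12.4 ± 1.91. Their ranges overlapped. Itga4 (6.68 ± 0.76), Itgam (4.49 ± 0.48) and Itgal (3.37 ± 0.83) came next, each separated from the one above it. Itgb7 (2.41 ± 0.28) overlapped Itgal, and Itgae (1.73 ± 0.29) and Itgad (0.030 ± 0.013) lay below. In the Lupron/anti-CSF1 tumours the order began with Itga4 (6.06 ± 0.53), Itgb2 (4.91 ± 0.74) and Itgax (3.96 ± 0.87), where each overlapped its neighbour, and Itgam (1.30 ± 0.35) stood between Itgal (1.49 ± 0.35) and Itgae (1.04 ± 0.21), overlapping both. In the anti-CSF1 tumours Itga4 (6.77 ± 3.22), Itgb2 (5.47 ± 2.45) and Itgax (4.52 ± 1.84) again came first with overlapping ranges, and Itgam was at 1.57 ± 0.19. In the IgG tumours, Itgb2 (11.4 ± 7.47), Itgam (10.5 ± 6.27), Itgax (9.15 ± 7.74) and Itga4 (5.38 ± 3.31) all overlapped.

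The makeup of the beta2 alpha chains differed between tumours. As a share of the 4 alpha chains per kilobase, Itgam made up 31.8%, 56.6% and 76.5% in the IgG tumours. It made up 15.5% to 22.3% with Lupron, 17.8% to 31.0% with anti-CSF1 and 13.0% to 23.2% with both. The IgG tumours thus had the 3 highest shares of 12. Itgax made up 56.4%, 33.4% and 13.8% in the IgG tumours and from 51.6% to 72.2% in the other 9. IgG replicates 2 and 3, where Itgam exceeded Itgax, were also the libraries highest in smooth muscle markers, at 2609 and 11374 CPM, and the part of that tissue in the ratio was not tested. Itgal made up 17.4% to 24.5% in all 6 antibody tumours and 9.25% to 15.1% in all 6 others. These shares must sum to the whole, so a lower Itgam share raises the others. How often other genes separate the tumours on such a scale was not counted. The lowest IgG share of Itgam, 31.8%, was close to the highest of the other tumours, 31.0%.

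The sum of the 4 alpha chains ran from 4.72 to 9.42 CPM per kb in the 6 antibody tumours. In the others it was 28.8, 30.7 and 6.62 with IgG and 32.4, 19.0 and 24.7 with Lupron. The level of Itgb2 per unit of its alpha chains was 0.42 to 0.60 without the antibody and 0.51 to 0.94 with it, with overlap. Of the beta7 partners, Itga4 stood at 0.87 to 6.12 times the level of Itgb7 per kilobase over the 12 tumours, and Itgae at 0.13 to 0.91 times. Both ratios were lowest in IgG replicate 3.

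**Figure D4:**
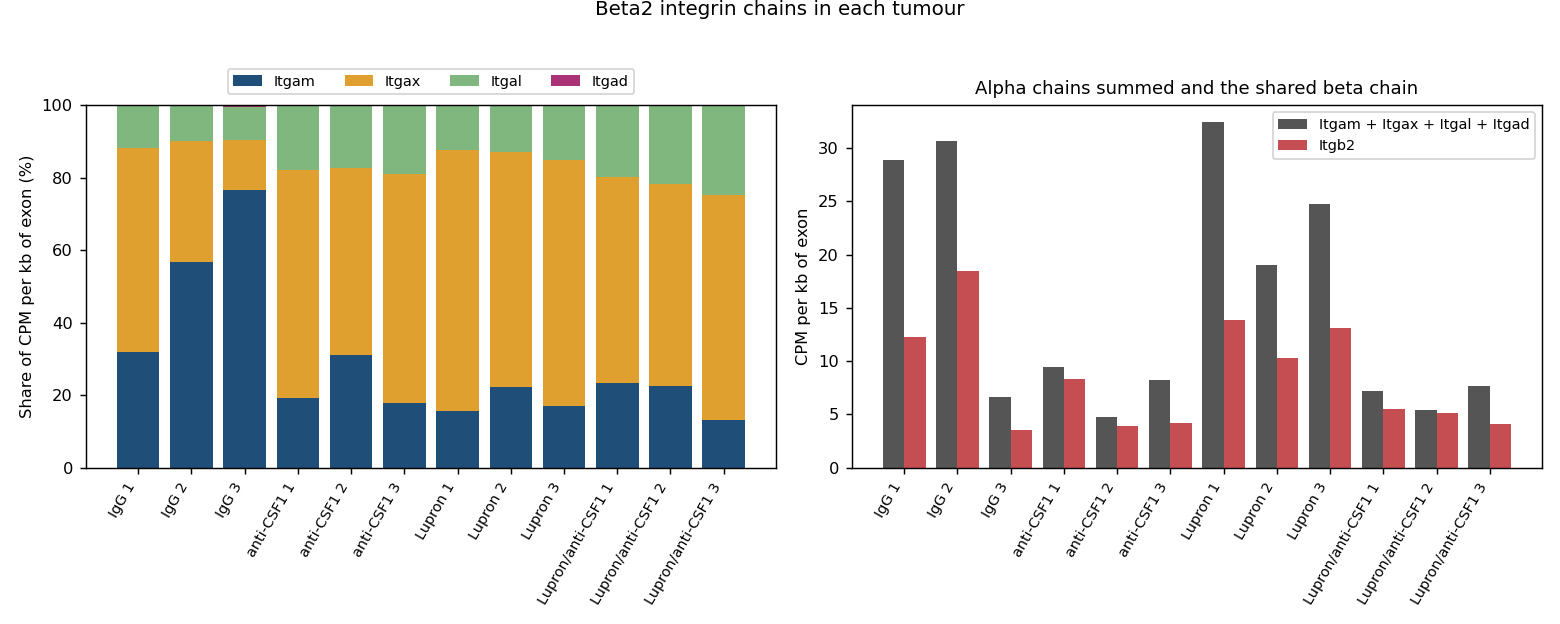
Left, share of Itgam, Itgax, Itgal and Itgad in their summed level per kilobase of exon (%, stacked to 100) in each of the 12 tumours. Right, that sum and the level of Itgb2 in CPM per kb. Itgam takes 31.8% to 76.5% in the IgG tumours and 13.0% to 31.0% in the other 9. The sums of the 6 antibody tumours are at 9.42 or below, as is that of IgG replicate 3 at 6.62.

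To set the integrins against leukocyte RNA in general, each was divided by Ptprc (CD45), a phosphatase on all nucleated blood cells. Ptprc itself was at 86.9, 142 and 28.4 CPM in the IgG tumours and at 46.0, 29.2 and 27.1 CPM in the anti-CSF1 tumours. It was at 99.3, 124 and 104 CPM in the Lupron tumours and at 43.7, 41.8 and 35.2 CPM in the Lupron/anti-CSF1 tumours. Its averaged change was −1.39 ± 0.32 (adjusted p = 0.0537). The log2 ratio of Itgam to Ptprc averaged −2.36 in the antibody tumours and −1.43 in the others, with overlapping ranges, and its 3 highest values were those of the IgG tumours. The ratio of Itgb2 averaged −1.25 and −1.42, and that of Itgax −0.91 and −0.94. None of the 7 members had all antibody tumours below the others on this scale, where 0.172% of genes did.

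Itgae and Itga4, which were not called as changed, stood higher relative to Ptprc in all 6 antibody tumours than in all 6 others. Itga4 ran from 0.79 to 2.38 with the antibody and from −0.75 to 0.42 without it. Itgae ran from −3.48 to −2.51 and from −4.85 to −3.53. These 2 of 7 members compare with 19.8% of all tested genes that were so separated, so nothing particular to the integrins is read from it.

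**Figure D5:**
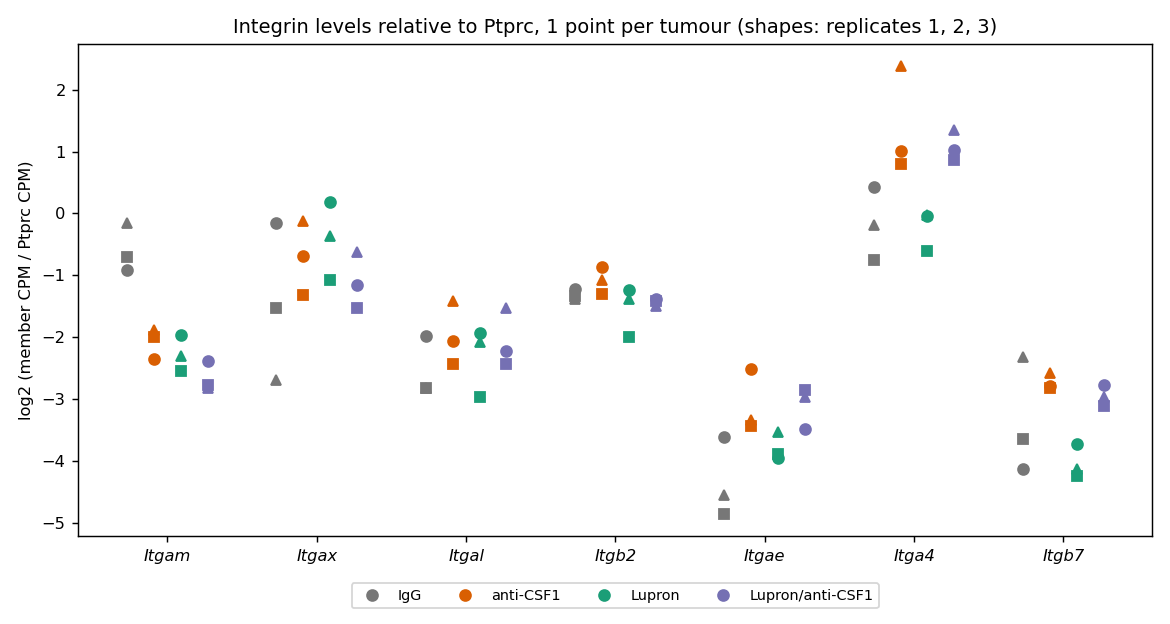
Integrin level relative to Ptprc (log2 of the ratio of CPM, vertical axis) for the 7 tested members, 1 point per tumour, coloured by group and shaped by replicate number. Itgam is highest in the 3 IgG tumours, and Itga4 and Itgae are higher in every antibody tumour than in every other tumour.

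Markers of the cells that carry these integrins moved as follows with the antibody, averaged over Lupron. Of the macrophage markers 7 of 9 were called lower, with a summed level of 152 to 290 CPM with the antibody and 392 to 1193 without it. Summed markers of all leukocytes were at 211 to 404 CPM with and 451 to 846 without it, with 0 of 6 called by edgeR. At an unadjusted p under 0.05, 4 of these were lower, and DESeq2, or edgeR without IgG replicate 3, called 3 lower (Coro1a, Laptm5 and Ptprc). A sum is weighted to its most abundant genes. IgG replicate 3 had 645 CPM in the leukocyte sum but 28.4 CPM of Ptprc. The Ptprc levels with and without the antibody overlapped. Of T cell markers 1 of 10 was called lower (Cd4), and the sum was 18.1 to 49.0 and 14.9 to 91.1 CPM. Monocyte markers had 1 of 5 called lower (F13a1), and also Ccr2 without IgG replicate 3. Their sum was 763 to 1637 and 247 to 1147 CPM, while 3 of the 5 estimates were negative. The median of the 5 was −1.30, or −1.53 without IgG replicate 3.

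Other leukocyte marker lists had no call in that fit. At an unadjusted p under 0.05 they held 2 dendritic cell and 1 B cell marker that were lower, 4 NK markers that were higher, and 0 of the neutrophil, mast cell and eosinophil markers. DESeq2 called 1 dendritic cell marker (Cd209a) and 1 B cell marker (Cd79b) lower and the NK markers Eomes, Gzmb, Ncr1 and Prf1 higher. For dendritic cells (8 tested), whose classical marker is Itgax, the sum was 11.6 to 19.6 CPM with the antibody and 11.2 to 36.7 without it. NK markers (7 tested) summed to 53.7 to 141 and 5.02 to 85.6 CPM, and without IgG replicate 3, Eomes and Gzmb were called higher. Neutrophil markers (5 tested), whose cells also carry Itgam, stood at 7.31 to 40.1 and 2.67 to 27.8 CPM, and mast cell markers (6 tested), whose cells can carry Itgb7, at 7.73 to 19.3 and 9.03 to 20.4 CPM. B cell markers (4 tested) had 0.82 to 4.97 and 3.82 to 14.2 CPM, and eosinophil markers (1 tested) 0 to 0.65 and 0.20 to 1.96 CPM. No marker in the table was at 0 in all 12 libraries. Smooth muscle and epithelial markers, which belong to no leukocyte, had 6 of 6 negative estimates each. Of 6 smooth muscle markers 0 were called by edgeR, while 6 had an unadjusted p under 0.05 and DESeq2 called 6 lower. Their median was −2.31, or −1.5 without IgG replicate 3, and their sum was 210 to 638 CPM with the antibody and 255 to 11374 without it. Of 6 epithelial markers 0 were called by edgeR, while 4 had an unadjusted p under 0.05 and DESeq2 called 2 lower (Epcam and Trp63). Their median was −1.31, or −0.52 without IgG replicate 3, and their sum was 130 to 252 CPM with the antibody and 108 to 1951 without it. The part of any of these cells in the integrin changes was not tested.

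Integrins work with ligands on other cells, and 0 of 8 tested ligand genes were called by edgeR with the antibody, with and without IgG replicate 3. At an unadjusted p under 0.05, 3 were lower and 1 higher, and DESeq2 called 3 lower (Cdh1, F11r and Icam1). Icam1, the ligand of LFA-1 and Mac-1, had a change of −0.93 ± 0.26 (adjusted p = 0.108), and Icam2, an endothelial ligand of LFA-1, 0.69 ± 0.29 (adjusted p = 0.238). Vcam1, the ligand of Itga4 pairs, stood at 0.035 ± 0.49 (adjusted p = 0.976). Cdh1, the cadherin that Itgae binds, had −1.52 ± 0.54 (adjusted p = 0.179), with 544 CPM in IgG replicate 3 and 13.0 to 162 in the other 11 tumours. Madcam1, the mucosal ligand of Itga4 with Itgb7, was too low to test, at 0 to 0.169 CPM.

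Of 14 genes that regulate integrin activation from inside the cell, some of them restraining it, 2 were called, both lower. They were Fermt3 (kindlin-3), which beta chains of blood cells need for activation (−1.65 ± 0.36, adjusted p = 0.0421), and the adaptor Fyb (−1.98 ± 0.28, adjusted p = 0.00798). The median of the 14 was 0.0071. Talin 1 (Tln1, 0.021 ± 0.27, adjusted p = 0.973), the Rap1 exchange factor Rasgrp2 (−0.70 ± 0.39, adjusted p = 0.349) and the Rap1 effector Apbb1ip (0.22 ± 0.43, adjusted p = 0.782) were not called. Without IgG replicate 3, Cyth1 was called lower as well.

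Genes that signal from bound integrins on myeloid cells had 11 of 12 negative estimates and a median of −1.03. Called lower were 3 of them, among these Fcer1g, a signalling chain (−1.69 ± 0.34, adjusted p = 0.035), and the adaptor Lcp2 (−1.41 ± 0.30, adjusted p = 0.0393). Fgr (−1.23 ± 0.33, adjusted p = 0.0978), Syk (−0.76 ± 0.22, adjusted p = 0.114) and Tyrobp (−1.45 ± 0.34, adjusted p = 0.06) were not. Without IgG replicate 3, 9 of the 12 were called lower, Fcer1g and Lcp2 among them. With Lupron, 0 genes of the ligand, activation and signalling lists were called by edgeR or DESeq2, and 0 had an unadjusted p under 0.05.

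Estimates for integrin chains found mainly on other tissues had both signs. Of 12 other alpha chains 1 was called lower with the antibody, Itga9 (−0.89 ± 0.18, adjusted p = 0.0312), and the median was 0.18. Itga5 (0.80 ± 0.33, adjusted p = 0.227) and Itgav (0.42 ± 0.34, adjusted p = 0.491), receptors of fibronectin and other matrix proteins, were not called. Of 6 other beta chains 0 were called by edgeR, with a median of 0.43. At an unadjusted p under 0.05, 2 were lower and 3 higher, and DESeq2 called 0. Itgb1, which also pairs with Itga4, had 0.62 ± 0.25 (adjusted p = 0.214) and Itgb3 1.01 ± 0.42 (adjusted p = 0.234). The epithelial chains Itgb6 and Itgb4 had −2.13 ± 0.92 (adjusted p = 0.241) and −1.55 ± 0.61 (adjusted p = 0.208). Whether these lists differ from the beta2 chains was not tested. Without IgG replicate 3, Itga7, a laminin receptor chain of muscle, was called higher beside the lower Itga9.

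Across the 12 tumours, the members' log2(CPM + 1) values were compared with each other and with 12888 other genes of at least 1 CPM on average, predicted genes (Gm and Rik symbols) left out. Such correlations are descriptions over tumours that share treatment and tissue makeup. Itgax and Itgal were the closest pair (Pearson r = 0.98, and 0.97 without IgG replicate 3). Itgam and Itgax had r = 0.47 over 12 tumours and 0.75 over 11, and Itgam and Itga4 had −0.042 and 0.19. Itgb2 had r = 0.76 with Itgam, 0.87 with Itgax and 0.88 with Itgal over 12 tumours. Without IgG replicate 3 these were 0.916, 0.865 and 0.872, so their order changed.

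The 2 genes most like each member were Siglec1 (r = 0.96) and Cfp (0.95) for Itgam, Runx3 (0.97) and Ptger4 (0.96) for Itgax, and Htr7 and AI504432 (both 0.98) for Itgal. They were Myo1g (0.98) and Pilra (0.97) for Itgb2, Zfp64 (0.97) and Rin3 (0.96) for Itga4, Arhgap19 (0.92) and Gbp4 (0.90) for Itgae, and Ly6c2 (0.90) and Lpo (0.87) for Itgb7. Without IgG replicate 3 the values for Itgae dropped to 0.87 and 0.82 and those for Itga4 to 0.92 and 0.91, while those for Itgam, Itgax, Itgal and Itgb2 were from 0.96 to 0.98.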

How the data were processed

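Bulk RNA-seq libraries of 12 tumours (prepared with a NuGen Ovation kit, per the labels' protocols) were grouped by their titles. The deposited table holds raw read counts per gene symbol without normalization by the authors. Per the submitters' processing notes, bcl2fastq 2.20.0.422, cutadapt 1.8.1 and HTSeq 0.6.1 were used with build mm10; those notes name no aligner, annotation or strand setting. Counts were fitted in R 4.3.3 with edgeR 4.0.16 (limma 3.58.1): the default filter on low counts, TMM scaling, 1 mean per group over 12 libraries, robust quasi-likelihood F tests, two-sided, with Benjamini-Hochberg adjustment over 15082 genes. The code was tested on simulated data. For 3 tumours against 3, an exact permutation test cannot go below p = 0.1. None of 66 pairs of libraries looked like a duplicate (chi-square per degree of freedom of at least 40.2). Exon lengths are from GENCODE M21, and start-site windows from RefSeq (both GRCm38). Members and lists were chosen with earlier results of these data known. Named besides the members were ligand, activation, signalling and other integrin genes by role, genes called in short counts (Fyb, Fcer1g, Lcp2, Cyth1, Itga7, Cd4, F13a1, Ccr2, Coro1a, Laptm5, Eomes, Gzmb, Ncr1, Prf1, Cd209a, Cd79b, F11r, Epcam, Trp63, Itgb4, Itgb6), chosen after their values were seen, and the 2 genes most correlated with each member. The values of 1 gene of the signalling list are not reported here. Alternatives were RLE or upper-quartile scaling, DESeq2 1.42.0, no or a stricter filter (1 CPM in 3 libraries), the compared groups only, the replicate number as a block, and leaving out each library.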

Additional observations from a re-analysis of the deposited data

How the results depend on the processing

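In the antibody comparison averaged over Lupron, the call of Itgam held in all alternatives run, and the number of members called ran from 1 to 4 when a library was left out, with 4 without IgG replicate 3 and 1 in the other 11 fits; DESeq2 called 3. Over all genes, 282 were called, 1425 by DESeq2, and leave-one-out fits called between 65, when anti-CSF1 replicate 3 was dropped, and 1577, when IgG replicate 1 was. The cause of these shifts was not tested. Whether the replicate numbers pair the tumours was not settled. Of 18 same-numbered pairs 8 correlated above 0.1 (range −0.304 to 0.513), and 6 of 12 tumours matched best with their own number. A replicate block lowered the 282 calls to 151, with 1 member, Itgam, still called. In anti-CSF1 against IgG, DESeq2 called 1 member, and leave-one-out fits 0 to 1. In Lupron/anti-CSF1 against Lupron, DESeq2 called 1, the compared groups alone 3, and leave-one-out fits 0 to 2. For the Lupron comparisons and the interaction no member was called in any alternative. Among the members' changes, 2 estimates near 0 turned sign outside the leave-one-out fits: Itgb2 with Lupron, to 0.073 under the block, and Itgae in anti-CSF1 against IgG, to −0.019 with upper-quartile scaling. In anti-CSF1 against IgG, 1 gene in all was called by edgeR, 1841 by DESeq2, 0 with the block or the compared groups alone, and 2 with RLE or upper-quartile scaling or the stricter filter. Leave-one-out fits called 0 to 2611 there, the most without IgG replicate 1. In Lupron/anti-CSF1 against Lupron, 0 genes in all were called by edgeR, and 5 with RLE scaling or the stricter filter, 7 with upper-quartile scaling, 2 with no filter, 204 with the compared groups alone, 236 by DESeq2 and 0 to 210 in leave-one-out fits, the most without IgG replicate 3. In Lupron against IgG, leave-one-out fits called 0 to 653 genes, the most without IgG replicate 1. Signs that turned with a library left out were all of estimates that were not called. With the antibody averaged, Itga4 ran from −0.11 to 0.33. With Lupron averaged, the ranges were −0.13 to 0.31 for Itga4, −0.23 to 0.25 for Itgb2 and −0.16 to 0.18 for Itgb7. The interaction ran from −0.74 to 0.062 for Itgal, −0.81 to 0.15 for Itgb2 and −0.30 to 0.41 for Itgb7. In anti-CSF1 against IgG, Itgae ran from −0.71 to 0.56 and Itga4 from −0.085 to 0.79. In Lupron against IgG, the ranges were −0.10 to 0.77 for Itga4, −0.31 to 0.65 for Itgb2 and −0.36 to 0.33 for Itgb7. In Lupron/anti-CSF1 against anti-CSF1, they were −0.49 to 0.054 for Itgax, −0.12 to 0.33 for Itgal, −0.19 to 0.82 for Itgae, −0.46 to 0.24 for Itga4, −0.35 to 0.28 for Itgb2 and −0.13 to 0.27 for Itgb7. Itgad had too few counts for a test, and Itgae and Itgb7 had 34 to 274 counts per library.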

Other observations

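Itgb2l, a gene closely related to Itgb2 that is not among the 8 and was looked at after the data were seen, had 8 counts in all 12 libraries: 1 in the IgG tumours, 2 with anti-CSF1, 0 with Lupron and 5 with Lupron/anti-CSF1, 4 of them in replicate 2. The sources used here do not say how reads that fit both genes were treated in the counting, and at this depth no difference was detectable.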
